A study of Mus musculus with 7 samples.

Results

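Islet beta cells and delta cells were compared here through the regions of accessible chromatin that were called in every library of the one cell type and in no library of the other. The regions came from peak lists of ATAC-Seq, in which a transposase inserts sequencing adapters into open DNA, so that a peak marks chromatin that proteins can reach. A region was beta-selective when all 3 beta lists and no delta list held a peak there, and delta-selective when both delta lists and no beta list did. Of 734171 regions in the 5 lists, 98614 were called in at least 2, and 8031 of these were selective. The 1332 beta-selective regions were 1.35% and the 6699 delta-selective regions 6.79% of the 98614. Each region was assigned to the nearest transcription start site (TSS) of a protein-coding gene.

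The cells came from healthy mice that carried 3 transgenes in all groups: the beta cell reporter mIns1-H2b-mCherry, the Cre-dependent reporter Rosa-LSL-YFP, and either Sst-Cre, which marks delta cells, or Gcg-Cre, which marks alpha cells. Animals were pooled by sex, and cells were sorted by fluorescence. The labels name no treatment and give no age. The series held 3 beta, 2 delta and 2 alpha libraries, and the alpha lists were not used to choose the regions.

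Beta cells secrete insulin and take up glucose through the transporter encoded by Slc2a2. Delta cells secrete somatostatin, encoded by Sst, which restrains insulin and glucagon release from their neighbours, and they depend on the homeobox factor Hhex. Regulatory DNA that lies far from a TSS often differs between cell types, whereas promoters of widely used genes are open in most of them.

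The libraries differed in ways that bear on the rule. The list of beta 1 held 518503 peaks, whereas the other 6 lists held between 75860 and 158066. In beta 1, 25903 peaks (5.0%) reached a −log10 q of 2, where q is the p-value of the peak caller after its correction for multiple testing, against 29.8% to 54.9% in the other lists. Beta cells carry their reporter in mice of either Cre line, and all 3 beta lists were deposited under file names that carry alpha or delta, the cell type such a line marks. The labels were used. The file names also place beta 1 and both alpha libraries on another sequencing lane than the remaining 4 libraries. Within that second lane, which leaves beta 1 out, 2598 regions were beta-selective and 12456 were delta-selective. Without delta 1 the delta-selective regions numbered 26987, and without delta 2 they numbered 91005. Without beta 2 and without beta 3 the beta-selective regions numbered 8951 and 8767, and without beta 2 they outnumbered the 7899 delta-selective ones. The lists hold no reads per region, so no test between the cell types was possible for a region, and an exact permutation test over 3 against 2 libraries could not go below 0.1.

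The DNA of regions that recur in the results is given first, as windows that reach 100 bp to each side of the summit of the strongest peak, on the plus strand of GRCm38. Letters in capitals match a motif that was searched on both strands: AP-1 (TGANTCA), MAF (TGCTGAC), RFX (GTTGCCAT), SP/KLF (GGGCGGG), the E-box of NEUROD1 (CAGATGG), MEIS (TGACAGNT), HNF1 (GTTAATNAT) or the homeobox palindrome (TAATTA). The first set holds a beta-selective region among the strongest and 2 strong ones with a MAF match. The matches in the window near Ankrd7 to MAF and to MEIS overlap.
Beta-selective, nearest gene 1700015G11Rik, chr7:53160257-53160457: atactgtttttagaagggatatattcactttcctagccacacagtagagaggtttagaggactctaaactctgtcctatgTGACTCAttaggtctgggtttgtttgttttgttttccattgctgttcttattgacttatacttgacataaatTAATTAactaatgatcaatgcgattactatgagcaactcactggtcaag
Beta-selective, nearest gene Ttc37, chr13:76150564-76150764: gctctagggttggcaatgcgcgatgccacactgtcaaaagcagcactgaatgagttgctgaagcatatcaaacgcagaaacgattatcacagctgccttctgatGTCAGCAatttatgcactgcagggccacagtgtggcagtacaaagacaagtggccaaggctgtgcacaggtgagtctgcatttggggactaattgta
Beta-selective, nearest gene Ankrd7, chr6:19283020-19283220: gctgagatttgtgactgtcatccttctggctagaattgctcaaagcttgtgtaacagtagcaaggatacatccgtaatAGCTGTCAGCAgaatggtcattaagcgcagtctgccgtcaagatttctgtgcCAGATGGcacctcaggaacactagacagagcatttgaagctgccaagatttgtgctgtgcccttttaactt

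The second set holds 3 strong delta-selective regions with an RFX match. The window near Jam3 is also the strongest of all delta-selective regions.
Delta-selective, nearest gene Jam3, chr9:27203257-27203457: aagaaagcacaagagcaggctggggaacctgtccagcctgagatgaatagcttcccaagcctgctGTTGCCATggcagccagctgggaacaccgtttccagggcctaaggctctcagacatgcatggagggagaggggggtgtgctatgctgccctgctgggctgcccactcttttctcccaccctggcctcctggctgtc
Delta-selective, nearest gene Ocrl, chrX:47949858-47950058: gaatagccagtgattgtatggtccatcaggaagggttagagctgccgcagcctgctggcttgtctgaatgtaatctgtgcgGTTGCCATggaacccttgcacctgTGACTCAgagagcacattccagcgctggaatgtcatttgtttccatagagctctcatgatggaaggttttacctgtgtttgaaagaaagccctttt
Delta-selective, nearest gene Tent4a, chr13:69544096-69544296: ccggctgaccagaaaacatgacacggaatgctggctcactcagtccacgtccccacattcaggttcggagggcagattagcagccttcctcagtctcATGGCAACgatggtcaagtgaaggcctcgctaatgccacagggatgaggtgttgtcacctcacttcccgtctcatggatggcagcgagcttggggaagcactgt

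The third set holds delta-selective regions at genes that act in delta cells. Those of Rbp4 and Ffar4 lie at a TSS, are rich in G and C, and hold matches to the SP/KLF motif. The window near Foxa2 held no match to any of the motifs searched.
Rbp4, chr19:38124635-38124835: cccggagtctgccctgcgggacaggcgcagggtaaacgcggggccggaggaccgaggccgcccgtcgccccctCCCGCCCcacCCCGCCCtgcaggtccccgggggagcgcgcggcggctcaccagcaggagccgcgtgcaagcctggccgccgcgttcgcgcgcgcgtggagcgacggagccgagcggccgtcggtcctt
Ffar4, chr19:38096915-38097115: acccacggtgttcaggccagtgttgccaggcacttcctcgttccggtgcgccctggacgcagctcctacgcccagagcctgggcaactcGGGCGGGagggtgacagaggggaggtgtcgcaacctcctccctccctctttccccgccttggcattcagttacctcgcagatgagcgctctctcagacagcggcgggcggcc
Hhex, chr19:37442708-37442908: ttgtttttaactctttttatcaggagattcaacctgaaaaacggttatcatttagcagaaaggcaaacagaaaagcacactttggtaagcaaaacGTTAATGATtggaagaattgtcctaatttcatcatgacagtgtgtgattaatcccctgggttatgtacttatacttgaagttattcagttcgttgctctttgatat
Foxa2, chr2:148053438-148053638: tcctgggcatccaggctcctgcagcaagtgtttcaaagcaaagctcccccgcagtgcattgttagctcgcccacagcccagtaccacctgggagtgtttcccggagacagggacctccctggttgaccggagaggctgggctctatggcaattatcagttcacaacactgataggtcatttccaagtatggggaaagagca

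The genes that mark the cell types were examined first. Rbp4, the retinol-binding protein that is abundant in delta cells, had 2 delta-selective regions among its 3 regions called in at least 2 lists. The region at its TSS (chr19:38124424-38125072, over exons 1 to 3) had a −log10 q of 6.12 in delta 1 and 12.8 in delta 2, no peak in any beta list, and 9.67 and 6.20 in the alpha lists. The region in intron 4 (chr19:38120106-38120387) had values of 2.56 and 2.32 in the delta lists and no peak in any other. Rbp4 was thus open at its TSS in the delta and alpha lists and, in its intron, in the delta lists alone.

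Sst had 2 delta-selective regions, 5.45 kb downstream and 5.63 kb upstream of its TSS. The downstream region had a −log10 q of 2.23 in delta 1 and 1.54 in delta 2, and the upstream region 1.03 and 2.24. Neither overlapped a peak of the alpha lists. The region over the Sst TSS itself was weak in both delta lists, at 0.95 and 0.97, and was not selective because beta 1 had a peak there, with a value of 2.34.

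Hhex had 1 delta-selective region, 7.87 kb downstream of its TSS, with a −log10 q of 3.39 in delta 1 and 1.93 in delta 2. Its TSS was strongly open in the delta lists, at 12.3 and 5.21, and carried a peak of 3.84 in alpha 2 and one of 0.077 in beta 1. That weak peak kept the Hhex TSS out of the delta-selective set. With beta 1 left out, the TSS of Hhex, the TSS of Sst and the TSS of Ghsr, the ghrelin receptor of delta cells, all became delta-selective.

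The beta markers gave no beta-selective region under the rule. Slc2a2 had 17 regions called in at least 2 lists, of which 7 were in all 5 lists, none was beta-selective and 2 were delta-selective. One of the delta-selective regions lay in intron 8 of Slc2a2, with values of 3.73 and 1.42 in the delta lists, and the other in intron 12 of the neighbouring Tnik, 111.8 kb upstream. With beta 1 left out, 2 regions 4.02 and 6.85 kb downstream of the Slc2a2 TSS became beta-selective. The nearer had a −log10 q of 1.01 in beta 2 and 6.18 in beta 3, and the farther 0.58 and 0.91. A further region in intron 12 of Tnik, 109.7 kb upstream of Slc2a2, then became delta-selective, with 7.10 in delta 1 and 9.92 in delta 2. The TSS of Slc35d2, a nucleotide sugar transporter gene, was called in all 7 lists, and neither of its 2 regions was selective. The 3 delta markers thus carried delta-selective regions as labelled. Of the beta markers, Slc2a2 had beta-selective regions once beta 1 was left out, and it had delta-selective regions with and without beta 1.

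Lists of genes were counted next, with the lists chosen when earlier results of these data were known. Of 16 genes of delta cell identity and receptors, 10 had at least 1 delta-selective region and 2 had a beta-selective one, against 19.5% and 5.13% of all 21938 protein-coding genes. The genes of this list had a median territory, the stretch of DNA nearer to their TSS than to any other, of 0.151 Mb against 0.0477 Mb for all genes. They thus differed from other genes in the room for regions. Counted by region, 9.57% of their 188 regions called in at least 2 lists were delta-selective, against 6.79% of all such regions. A −log10 q of at least 2 within 1 kb of the TSS was found for 11 and 12 of the 16 genes in the delta lists, for 3, 3 and 5 in the beta lists, and for 11 in each alpha list. Of all 21938 genes, delta 1 and delta 2 had such a peak at 11692 and 11153, and alpha 1 and alpha 2 at 11772 and 12281. Beta 1, beta 2 and beta 3 had one at 8326, 8627 and 10457, so that each beta library was also lower over all genes.

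Of these delta genes, Ffar4, Rbp4 and Ghsr had a delta-selective region within 1 kb of the TSS. In the other members with such a region it lay 5.45 kb or more away. Ffar4, a receptor for long-chain fatty acids, had a region over its TSS (chr19:38096838-38097209) with a −log10 q of 11.8 in delta 1 and 12.9 in delta 2, and of 6.35 and 5.99 in the alpha lists. Ghsr had a region 0.37 kb downstream of its TSS, where the delta values were 4.14 and 1.11 and the alpha values 3.30 and 5.60. Crhr2, a receptor of the urocortin family, had a region 14.9 kb downstream with 5.54 and 4.32. Etv1, an ETS factor, had 4 delta-selective regions, the strongest of them 303.8 kb downstream with 7.99 and 7.52 and no alpha peak. The other members with a delta-selective region were Arg1, Hhex, Ptprz1, Rbp4, Spock3 and Sst.

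Of 24 genes of beta cell identity and insulin secretion, 4 (16.7%) had a beta-selective region and 8 (33.3%) a delta-selective one, against 5.13% and 19.5% of all genes. The 4 were G6pc2, the islet glucose-6-phosphatase, Mafa, a beta cell transcription factor, Slc30a8, the zinc transporter of insulin granules, and Ucn3, the peptide urocortin 3. The region at Ucn3 lay 1.30 kb downstream of its TSS, with a −log10 q of 0.077, 0.82 and 2.64 in the beta lists. That at Mafa lay 29.8 kb upstream, with 0.077, 4.40 and 1.43, and that at G6pc2 lay 17.5 kb downstream, with 0.41, 2.91 and 1.23. None of the 4 regions reached a value of 2 in every beta list. By region, 2.38% of the 168 regions of this list were beta-selective, against 1.35% of all, and 5.95% were delta-selective, against 6.79%. With beta 1 left out, 9 of the 24 genes had a beta-selective region and 9 a delta-selective one, against 9.18% and 29.4% of all genes. Slc2a2, Pcsk1, Prlr, Ero1lb and Ins1 were added to the former. The region assigned to Ins1 lay 735.8 kb from its TSS, with 0.82 in beta 2 and 1.43 in beta 3. That of Pcsk1 lay 181.2 kb away, with 4.17 and 1.43. Those of Prlr and Ero1lb lay 59.5 and 51.1 kb away, with 1.82 and 1.43, and with 0.35 and 1.15.

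The alpha cell and gamma cell list, of 11 genes, had delta-selective regions at 6 (54.5%) and a beta-selective region at 1 (9.09%). Over all genes the shares were 19.5% and 5.13%. The median territory of the list was 0.219 Mb, against 0.0477 Mb for all genes. By region, 8.53% of the 129 regions of this list were delta-selective and 1.55% beta-selective, against 6.79% and 1.35% of all. Gcg, which encodes glucagon, had one 9.31 kb downstream where delta 1 and delta 2 had 1.65 and 2.64 and the alpha lists 2.41 and 6.90. Irx2, an Iroquois homeobox gene, had 5, the strongest 262.5 kb upstream with 21.2 and 5.23 in the delta lists.

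Of 25 pan-endocrine transcription factor genes, 14 had a delta-selective and 5 a beta-selective region, and all 5 of the latter had both kinds. These were 56% and 20% of the list, against 19.5% and 5.13% of all genes. The median territory of the list was 0.289 Mb, against 0.0477 Mb for all genes. By region, 9.75% of the 400 were delta-selective and 1.5% beta-selective, against 6.79% and 1.35% of all. Markers of acinar, duct, endothelial, stromal and immune cells had no beta-selective region, and 5 of 17 had a delta-selective one: Cdh5, Col1a1, Pnlip, Sox9 and Spp1. The 5 were 29.4% of the list, against 19.5% of all genes, and by region 8.26% of its 109 regions were delta-selective, against 6.79% of all. For the beta-selective kind, the shares over all were 5.13% of genes and 1.35% of regions. A −log10 q of at least 2 near the TSS of these 17 genes was found for 0, 1 and 0 in the beta lists, for 3 in each delta list and for 1 in each alpha list. Over all genes, too, each beta library had fewer such peaks than any delta or alpha library, by the counts given above. The part of other cells in the delta-selective set was not tested.

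Lists of signalling, guidance and adhesion genes were counted in the same way. Among all genes, 19.5% had a delta-selective and 5.13% a beta-selective region, and the median territory was 0.0477 Mb. Of 38 axon guidance genes, 25 (65.8%) had a delta-selective and 10 (26.3%) a beta-selective region, and their median territory was 0.473 Mb. Counted by region, 7.61% and 1.48% of their regions were selective, close to the shares of 6.79% and 1.35% among all regions. For 35 cAMP signalling genes the counts were 16 and 2, for 43 glycosaminoglycan biosynthesis genes 17 and 6, for 28 adherens junction genes 12 and 1, for 22 Rap1 signalling genes 10 and 4, and for 42 MAPK signalling genes 11 and 3. Their delta-selective shares by region lay between 4.5%, for adherens junction, and 8.28%, for Rap1 signalling.

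Selective regions lay far from TSSs. Only 6.91% of the beta-selective regions (95% Wilson interval 5.67 to 8.40) and 10.6% of the delta-selective regions were within 3 kb of a protein-coding TSS, against 43.7% of the 19756 regions called in all 5 lists and 16.7% of those in at least 2. The median distance was 73.3 kb for beta-selective, 49.9 kb for delta-selective, 9.43 kb for the regions of all 5 lists and 47.6 kb for regions in at least 2. Introns held 31.8% of beta-selective and 39.0% of delta-selective regions, and 55.9% and 44.1% were intergenic. The intervals cover the counting of regions only, not the spread between libraries.

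**Figure D1:**
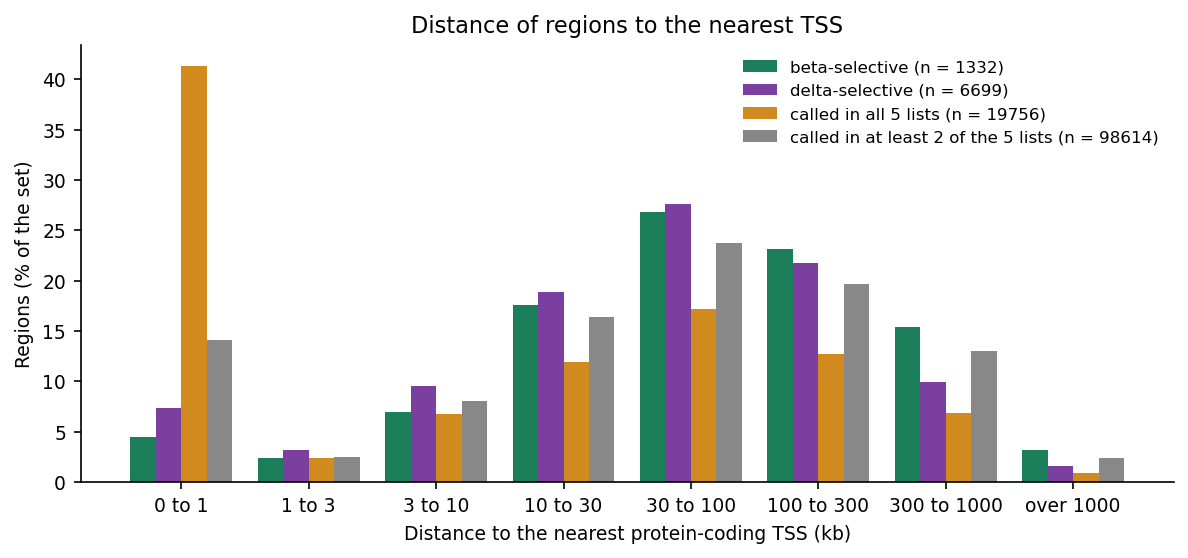
Distance from each region to the nearest protein-coding TSS, as the percentage of each set of regions (y axis) in 8 distance bins in kb (x axis). Regions of all 5 lists stand highest in the bin of 0 to 1 kb, whereas beta-selective and delta-selective regions are most frequent between 30 and 100 kb.

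The defining peaks were weaker in the beta-selective set. Every defining peak had a −log10 q of at least 2 in 137 of 1332 beta-selective regions (10.3%) and in 2214 of 6699 delta-selective regions (33.0%). The beta rule takes 3 peaks and the delta rule 2, and without beta 1, with 2 peaks for each, the counts were 467 of 2598 (17.98%) and 4727 of 12456 (37.9%). The median −log10 q of beta-selective regions was 1.10, 1.82 and 1.43 in beta 1, beta 2 and beta 3, and that of delta-selective regions was 2.15 and 2.36 in delta 1 and delta 2. Regions called in all 5 lists had medians of 4.35 to 8.32 in the beta lists and of 15.1 and 11.1 in the delta lists.

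The strongest beta-selective region lay 644.9 kb upstream of Pik3c3, a lipid kinase gene of the autophagy pathway, with a −log10 q of 15.5, 13.2 and 20.2 in the beta lists and of 3.30 and 6.92 in the alpha lists. The region 1144.5 kb upstream of 1700015G11Rik had 12.4, 10.6 and 13.4 and no alpha peak. The region 8.18 kb upstream of Rps6ka5, a nuclear kinase gene, had 6.87, 7.65 and 12.3, also with no alpha peak. The other 3 of the 6 strongest were near Ccdc71l, Rhob, which encodes a small GTPase, and Cd163, a scavenger receptor gene of macrophages, where the region overlapped exon 4. Thus 5 of the 6 regions were intergenic, and 3 of the 6 had no peak in either alpha list.

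Beta-selective regions at promoters were weak. The 4 strongest within 1 kb of a TSS were at Gm16223, Them7, Gm3776 and 4931408C20Rik. The highest of them, over the TSS of Gm16223, had a −log10 q of 4.35, 5.58 and 4.001 and no alpha peak. That at 4931408C20Rik had 2.44, 4.14 and 1.91, so that it fell short of 2 in beta 3.

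Delta-selective regions reached higher values. The region 47.7 kb upstream of Jam3, a junctional adhesion molecule gene (chr9:27203100-27203568), had 31.2 in delta 1 and 39.3 in delta 2, and 6.90 and 7.11 in the alpha lists. The region 52.4 kb upstream of Ccdc85a had 34.5 and 23.3 and no alpha peak. The regions near Antxr2, an anthrax toxin receptor gene, and Stxbp4, a syntaxin-binding protein gene, had 27.3 and 21.6 as the lower of their delta values and were also called in both alpha lists. Of the 6 strongest, 5 had peaks in both alpha lists, and the region near Ccdc85a had none.

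Delta-selective regions at promoters included strong ones. Over the TSS of Prr36 the delta values were 36.9 and 24.5, and at exon 1 of Ccna1, a cyclin gene, they were 26.8 and 21.5. The alpha values at Ccna1 were as high, 21.6 and 22.6. Fam213a had 29.2 and 21.4. Kcna5, a voltage-gated potassium channel gene, had 25.02 and 18.9 over its TSS, and 24.6 and 13.6 in the alpha lists.

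**Figure D2:**
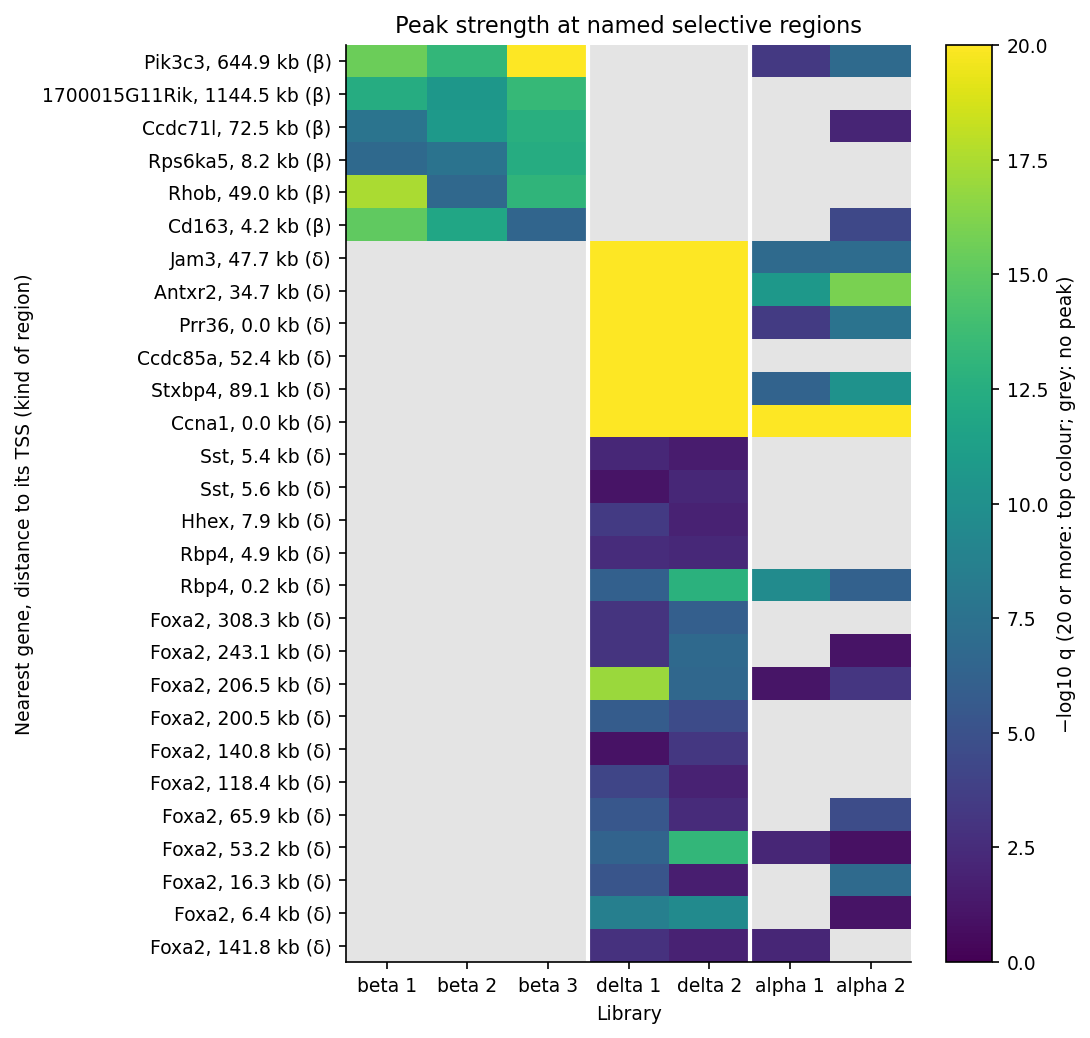
−log10 q of the peak (colour, from 0 to 20 or more) in each of the 7 libraries (x axis) at the 6 strongest beta-selective regions, the 6 strongest delta-selective regions and the delta-selective regions of Sst, Hhex, Rbp4 and Foxa2 (y axis, with the distance to the TSS in kb). Grey marks no peak, which the rule fixes for the other cell type, and the alpha columns show that 5 of the 6 strongest delta-selective regions had a peak in both alpha lists.

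The alpha lists were not used by the rule, although their libraries may share animals with those of the other lists. A peak in at least 1 alpha list was found at 40.5% of beta-selective regions (37.9 to 43.2) and at 58.9% of delta-selective regions (57.8 to 60.1), against 55.7% of regions in at least 2 lists and 96.5% of regions in all 5. In alpha 1 the shares were 25.4% and 40.3%, and in alpha 2 they were 29.3% and 49.0%, so that delta-selective regions were the more often open in each alpha library. Both alpha lists held 14.1% of beta-selective and 30.4% of delta-selective regions. Among regions whose defining peaks all had a −log10 q of at least 2, an alpha peak was present at 51.8% and 72.4%. Without beta 1, which shared its lane with the alpha libraries, the shares were 32.6% and 65.8%. Without delta 1 the order turned, with 58.9% for beta-selective and 27.1% for delta-selective regions, and without delta 2 likewise, with 48.8% and 13.2%.

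Among delta-selective regions the share with an alpha peak was higher for stronger defining peaks. It was 46.8% of 2476 delta-selective regions whose weaker delta peak had a −log10 q under 1, and 79.8% of the 976 regions with 4 or more. For beta-selective regions it was 32.6% of 737 and 56.0% of 25, but the 56.0% came from alpha 2. In alpha 1 the beta-selective shares were 21.03%, 30.3%, 34.8% and 20% (5 of 25) from the weakest to the strongest defining peaks. Within 3 kb of a TSS, 74.1% of the 710 delta-selective and 47.8% of the 92 beta-selective regions had an alpha peak.

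**Figure D3:**
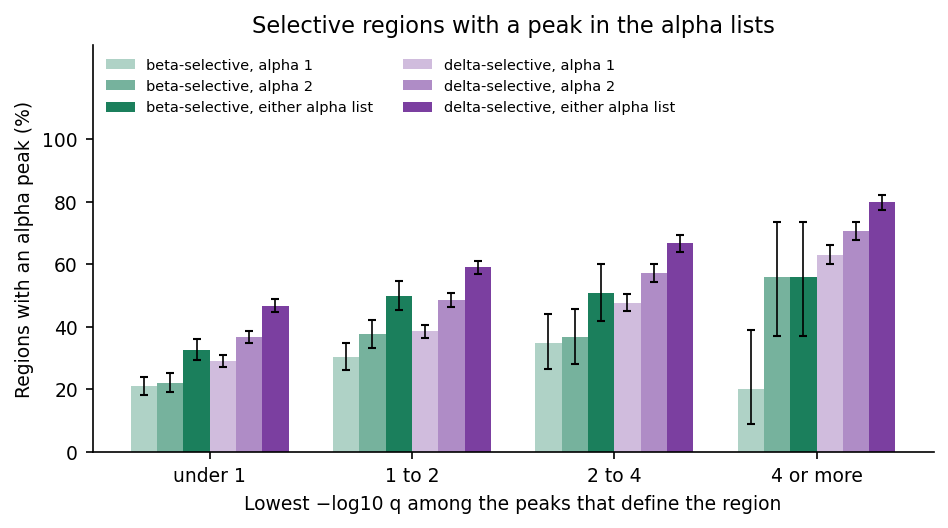
Percentage of beta-selective and delta-selective regions with a peak in alpha 1, in alpha 2 or in either (y axis), by the lowest −log10 q among the peaks that define the region (x axis); error bars are 95% Wilson intervals. The bars for either alpha list reach 46.8% and 79.8% in the weakest and strongest delta-selective bins, and 32.6% and 56.0% in the beta-selective ones, where alpha 1 alone holds 21.03% and 20%.

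A check with libraries that did not choose the regions gave different results for the kinds. When 1 beta and 1 delta library were left out and the regions were chosen again, delta-selective regions were found more often in the left-out delta than in the left-out beta library in 5 of 6 combinations. The exception was beta 1 with delta 2, at 11.7% in delta 2 and 19.2% in beta 1. Counting only peaks that reached a −log10 q of 2, the delta library was ahead in 6 of 6 combinations, by 2.74 to 6.05 times. For beta-selective regions the same count put the beta library ahead in 4 of 6, with ratios of 0.87 to 1.69. The delta lists held more peaks that reached 2, 47042 and 41683, than the beta lists, 25903 to 38058. Counting all peaks, beta-selective regions were found more often in the left-out beta library in 4 of 6 combinations, with shares of 18.2% to 61.7% there and of 12.8% to 46.8% in the left-out delta library. Both exceptions had delta 1 left out, with beta 2 (23.4% against 31.6%) or beta 3 (24.8% against 28.7%). With delta 2 left out, beta 2 had 18.2% against 16.5% and beta 3 had 19.5% against 12.8%. The highest shares, 55.6% and 61.7%, were those in beta 1, whose list was the longest with 518503 peaks. The part of list length was not tested.

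Regions that missed the rule by 1 list were many. Of the 45115 regions in both delta lists, 14.8% had no beta peak, and 8946 had a peak in exactly 1 beta list. In 5737 of these (64.1%) the list was that of beta 1, and 745 of the 5737 peaks reached a −log10 q of 2. Of the 23441 regions in all 3 beta lists, 5.68% had no delta peak, and 2353 had a peak in exactly 1 delta list, which was delta 1 in 73.7%.

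Selective regions were spread over many genes. At least 1 beta-selective region was nearest to 1126 genes and at least 1 delta-selective region to 4286. Both kinds occurred at 538 genes, which were 47.8% of the former and 12.6% of the latter. Of all genes, 19.5% had a delta-selective and 5.13% a beta-selective region. The 538 genes had a median territory of 0.512 Mb, against 0.0477 Mb for all genes, and thus more room for regions of either kind. At least 3 regions were nearest to 39 genes for the beta-selective and to 548 for the delta-selective kind. Genes with 3 or more had large territories, with medians of 1.39 Mb and 0.532 Mb.

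Foxa2, a forkhead factor of the endoderm that is used throughout the islet, had the most delta-selective regions, 11 of its 32 regions called in at least 2 lists (34.4%), and no beta-selective region. They extended from 141.8 kb upstream to 308.3 kb downstream of the TSS. Both delta peaks reached a −log10 q of 2 in 7 of them. The region 6.401 kb upstream had values of 8.67 and 9.59, that 53.2 kb downstream 6.35 and 13.2, and that 206.5 kb downstream 17.004 and 6.64. An alpha peak was present at 7 of the 11, and the one with the highest alpha value, 6.92 in alpha 2, lay 16.3 kb downstream. The regions of Foxa2 thus lay on both sides of the gene, with and without alpha peaks.

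Sema6a, a transmembrane semaphorin gene of axon guidance, had 10 delta-selective regions among 36, and Grid1, a gene of the glutamate receptor delta family, had 10 among 41. At Grid1, 9 of the 10 had an alpha peak, and at Sema6a 7 of 10. Tbl1xr1, a corepressor subunit gene, had 9 among 117, which at 7.69% was close to the 6.79% among all regions. Myc, Arrdc3, Cdh10, Ntm, Efnb2 and Gpc6, taken from 9 genes tied at 8 by the number of strong regions and then by symbol, had 8 each, with shares of 11.6% to 16.3% of their regions. At Efnb2, which encodes an ephrin ligand, none of the 8 had an alpha peak, whereas at Myc 4 did. The territories of these 10 genes ranged from 0.467 Mb, for Sema6a, to 2.39 Mb, for Tbl1xr1.

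Abca13, a gene of the ABC transporter family, and Klhl29, a kelch-like gene, had 5 beta-selective regions each, the most of any gene. At Abca13 they lay 140.1 to 879.9 kb downstream of the TSS, and the strongest, the farthest one, had a −log10 q of 2.44, 5.31 and 6.20. At Klhl29, 4 of the 5 had a peak under 2 in beta 1, and 5 delta-selective regions lay in the same territory of 1.53 Mb. Gbe1, the glycogen branching enzyme gene, Pcdh9, a protocadherin gene, Timm21, of mitochondrial protein import, and Vstm2b had 4 each. Csmd3, 4930452B06Rik, Atxn7l3b and B3galt2 completed the 10 with 3 each, taken in the same way from 33 genes tied at 3. Over these 10 genes, beta-selective regions made up 3.33% to 13.9% of the regions called in at least 2 lists, against 1.35% of all such regions. The genes were chosen for their counts, so higher shares follow in part from the choice. Their territories ranged from 0.730 Mb, for Timm21, to 3.70 Mb, for Pcdh9.

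At 68 genes there were at least 2 regions of each kind. Rapgef2, an exchange factor for Rap1, had 3 beta-selective and 8 delta-selective regions, and Csmd3 and Efna5, an ephrin gene, had 3 and 7 each. Klhl29 had 5 and 5, and Pcdh9 had 4 and 6. Delta-selective regions made up 5.22%, at Pcdh9, to 10.5%, at Rapgef2, of the regions in at least 2 lists, against 6.79% of all such regions. Beta-selective regions made up 3.33%, at Csmd3, to 9.43%, at Klhl29, against 1.35%. These 5 genes were chosen for their counts, and their territories were 1.53 to 3.70 Mb.

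**Figure D4:**
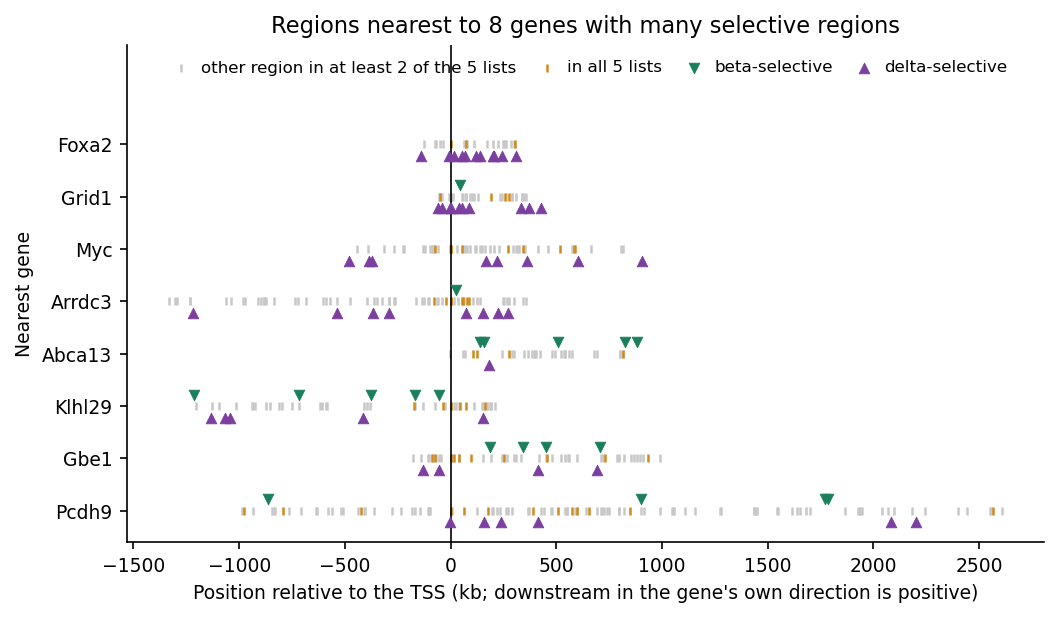
Positions of regions relative to the TSS (x axis, kb, positive downstream) for 8 of the genes with many selective regions (y axis). Triangles mark beta-selective and delta-selective regions and ticks mark other regions called in at least 2 of the 5 lists; Foxa2 carries 11 delta-selective and no beta-selective region, whereas Klhl29 carries 5 of each.

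Runs of neighbouring selective regions were found for delta cells alone under the rule. A run was at least 3 regions of a kind with gaps of at most 25 kb. There were 84 such loci of delta-selective regions, which held 264 regions (3.94%), and 0 of beta-selective regions. With beta 1 left out there were 377 and 2. The beta-selective set was also the smaller, 1332 against 6699 regions.

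The largest locus held 5 delta-selective regions in 37.8 kb (chr19:38096838-38134643) and joined Ffar4 and Rbp4, which were described above, with Pde6c, a phosphodiesterase gene of cone photoreceptors. The region 1.21 kb from the TSS of Pde6c had a −log10 q of 11.3 in delta 1 and 14.3 in delta 2, and of 5.59 and 10.6 in the alpha lists. At 4 of the 5 regions both delta values were at least 2, and the 3 regions closest to a TSS had peaks in both alpha lists. No region of the interval was called in all 5 lists. The remaining 2, in an exon at Ffar4 and in intron 4 of Rbp4, had no alpha peak.

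A further 10 loci held 4 regions each. B4galt6, a galactosyltransferase gene, had 4 in 10.1 kb, and Sema6a had 4 in 29.5 kb, all of them with an alpha peak. The locus of Mdk, which encodes the growth factor midkine, and Gm9821 spanned 17.7 kb, and only 1 of its 4 regions had both delta values of at least 2. That of Smim18 lay 30.6 to 59.9 kb from its TSS.

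The DNA of the sets differed in the motifs it held. The RFX motif was found in 2.78% of delta-selective windows (2.41 to 3.20) and 0.60% of beta-selective windows, against 1.33% of windows of regions in at least 2 lists. Factors of the RFX family, among them Rfx6, act in islet cells. Among delta-selective regions with both peaks at a −log10 q of 2 or more, 3.75% held it, and 0 of the 137 corresponding beta-selective windows did, a count that allows a share of up to 2.19%. Regions beyond 3 kb of a TSS gave 2.76% for delta-selective and 1.37% for those in at least 2 lists. The windows near Jam3, Ocrl and Tent4a printed above carry such a match.

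The MAF motif was found in 7.13% of beta-selective windows (5.87 to 8.64), 4.60% of delta-selective windows and 4.79% of windows in at least 2 lists. It was found in 13.1% (18 of 137) among beta-selective regions with all peaks at 2 or more. MAFA, which binds such elements, is a factor of mature beta cells. The AP-1 motif was found in 24.3% of beta-selective, 17.9% of delta-selective and 15.0% of all windows, and in 38.0% of the 137. Beyond 3 kb of a TSS, however, windows of all 5 lists held AP-1 as often (24.2%) as beta-selective windows (24.6%), whereas for MAF the shares were 5.55% and 7.10%. With beta 1 left out, the shares were 5.85% for MAF and 19.6% for AP-1 in beta-selective and 2.38% for RFX in delta-selective windows. A match describes the sequence and does not show that a factor was bound.

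Other motifs were counted in the same windows. The SP/KLF motif was found in 26.2% of windows in all 5 lists but in 2.48% of beta-selective and 4.67% of delta-selective windows. The GATA motif (AGATAAG) was found in 3.24% of delta-selective, 1.58% of beta-selective and 2.37% of windows in at least 2 lists. The forkhead motif (TGTTTAC) stood at 6.76% and 6.34% in beta-selective and delta-selective windows, against 4.93% in regions of at least 2 lists. Beyond 3 kb of a TSS, windows of all 5 lists held it about as often (6.97%) as beta-selective (7.10%) and delta-selective windows (6.65%). The homeobox palindrome was more frequent in delta-selective windows without an alpha peak (7.96%) than in those with a peak in both alpha lists (3.49%), against 5.30% in regions of at least 2 lists. The former windows also had the lower median GC content, 46.3% against 49.8%, and the part of base composition was not tested. Of the remaining motifs, the E-box of NEUROD1 was found in 8.18% of beta-selective and 5.93% of delta-selective windows, against 6.24% in regions of at least 2 lists. Beyond 3 kb of a TSS its shares were 8.47% and 6.18%, against 8.11% in regions of all 5 lists. MEIS was found in 5.26% and 4.05%, against 4.07% in regions of at least 2 lists, and the CTCF core (CCACNAGG) in 4.43% and 4.79%, against 4.68%. Those of HNF1, HNF4 (CAAAGTCCA), NKX6-1 (TTAATTAC, which holds the palindrome), POU factors (ATGCAAAT), ETS factors (CCGGAAGT) and the CRE (TGACGTCA) were each in under 1.5% of the windows of both kinds. The median GC content of the windows was 46.5% in beta-selective, 48.3% in delta-selective and 56.2% in regions of all 5 lists.

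**Figure D5:**
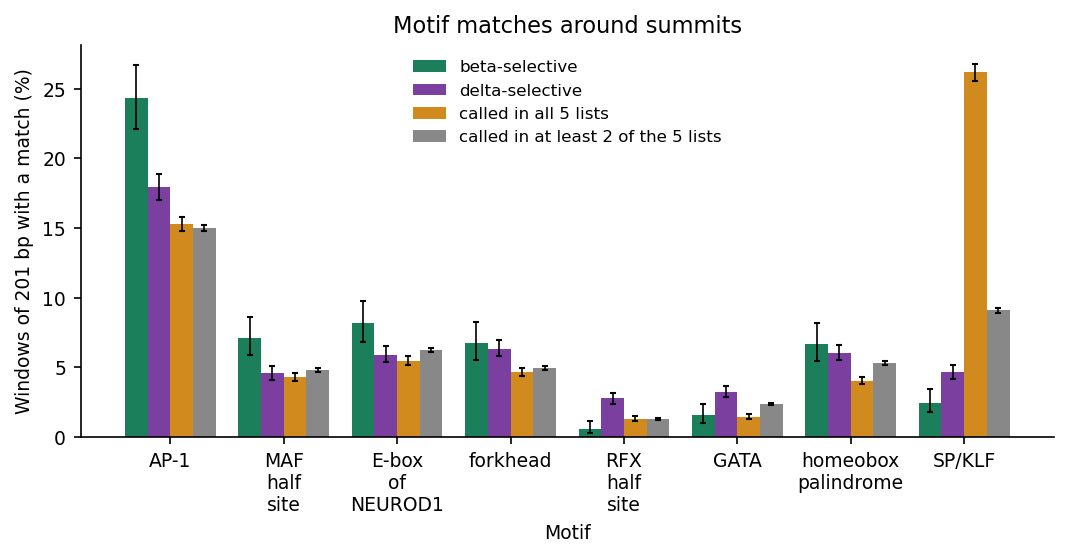
Percentage of windows around summits that hold a match to each of 8 motifs on either strand (y axis) in beta-selective, delta-selective, all-5-list and at-least-2-list regions; error bars are 95% Wilson intervals. The RFX motif is at 2.78% in delta-selective and 0.60% in beta-selective windows, and the MAF motif at 4.60% and 7.13%.

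The X chromosome held 5.11% of beta-selective regions (4.05 to 6.42) and 2.69% of delta-selective regions (2.33 to 3.10), against 4.01% of regions in at least 2 lists. By the study's sample list each library came from a single sex: male for beta 1, beta 3 and delta 2, and female for beta 2 and delta 1. The mix of sexes thus differed between the cell types, and its part in the X chromosome shares was not tested.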

How the data were processed

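Peak lists of 7 ATAC-Seq libraries of sorted mouse islet cells (3 beta, 2 delta and 2 alpha, grouped by their labels) were used. According to the submitters' notes and the study's methods, the authors used Trimmomatic for trimming, Bowtie2 for alignment of the single-end reads to mm10, Picard for duplicates, and MACS2 to call peaks per library. The deposited lists give, for each peak, a score, a fold enrichment over background, and −log10 p and −log10 q values. They give no read counts per region, so precision could not be derived per region. The study's sample list states unique reads per library, among which beta 1 has the fewest and delta 1 the most of the beta and delta libraries analysed here. All peaks had a −log10 p above 2.

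Repeated intervals were kept once, and intervals of the beta and delta lists that overlapped by at least 1 bp were merged. Regions were assigned to the nearest of 21938 protein-coding TSSs of GENCODE vM21, edge to edge. Sequence came from GRCm38 (RefSeq). Windows of 100 bp to each side of the summit with the highest −log10 p were searched for 16 motifs. Merging and assignment were tested on simulated lists and against bedtools 2.31.1; Python 3.11.15, pandas 2.3.3, SciPy 1.17.1 and pysam 0.24.0 were used.

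Genes named were 5 markers, the 10 genes with most regions of each kind, the 6 strongest regions of each kind and the 4 strongest within 1 kb of a TSS, the 5 largest loci, the 5 genes with most regions among those with at least 2 of each kind, and members of 11 gene lists as examples. The members and lists were chosen with earlier results of these data known. No test was run between the cell types. Alternatives were stricter peaks, fewer peaks, other rules of presence, other TSS sets and leaving out each library. Replicates are labelled biological, and animals were pooled.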

Additional observations from a re-analysis of the deposited data

How the results depend on the processing

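By the study's methods the cell types came from the same animals, pooled by sex. The labels do not say which libraries share a pool, so beta and delta libraries could not be paired. Libraries that share animals may therefore have been treated as separate. The counts and shares come from no test. With peaks of a −log10 q of at least 2 alone, 414 regions were beta-selective, with 3.62% within 3 kb of a TSS, 44.9% with an alpha peak and 1 gene with at least 3 regions. For delta-selective regions these shares were 15.3% and 65.8%. With that minimum on the defining peaks and absence from the full lists, there were 137 beta-selective regions (4.38% within 3 kb, 51.8% with an alpha peak, 0 genes) and 2214 delta-selective ones (13.3%, 72.4%, 70 genes). Under that setting 0 genes of either identity list had a beta-selective region. A delta-selective one was left at 3 of the beta and 5 of the delta list. The share over all genes is not given for that setting, so these counts stand alone. The setting left 10 delta loci, and the motif shares were 13.1% for MAF, 38.0% for AP-1 and 3.75% for RFX. With 50000 peaks per list there were 683 beta-selective regions and 8 genes, and the delta shares were 13.5% within 3 kb and 60.6% with an alpha peak. With 2 of 3 beta lists required, 17690 regions were beta-selective, more than the 6699 delta-selective ones, with 5.07% within 3 kb, 19.0% with an alpha peak and 1823 genes. Where peaks had to cover a share of 0.5 of the region, 48.3% of beta-selective regions had an alpha peak and 17 genes had at least 3, and for delta-selective regions the values were 14.5% within 3 kb, 68.6% and 891 genes. Measured to the nearest transcript start, 12.5% and 18.003% of beta-selective and delta-selective regions were within 3 kb. With all annotated genes the shares were 13.4% and 18.2%, and 3 and 163 genes had at least 3 regions, and with a limit of 100 kb 2 and 143 did.

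With each library left out in turn, beta-selective regions numbered 1956 to 8951 and delta-selective regions 7899 to 91005. The shares within 3 kb of a TSS were 4.63% to 9.37% and 4.60% to 13.4%, those with an alpha peak 18.7% to 58.9% and 13.2% to 65.8%, and the genes with at least 3 regions 74 to 813 and 727 to 7608. Without beta 1, 9 genes of the beta list had a beta-selective and 9 a delta-selective region, and 3 and 13 of the delta list did. Of all genes, 9.18% had a beta-selective and 29.4% a delta-selective region under this setting. There were 2 beta and 377 delta loci, and the motif shares were 5.85% for MAF, 19.6% for AP-1 and 2.38% for RFX. The settings for loci, identity lists and motifs were chosen after seeing the data. The cause of these differences was not tested. In all, 82 of the 108 values under an alternative moved by more than 1.5 times or out of the counting interval. What depth limits could not be computed from the lists.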
